A study of Mus musculus with 6 samples.

Results

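Binding of the transcription factor SP8 was examined at 58 genes of the Wnt signalling pathway in mouse limb ectoderm. The genes were a list by name of 18 Wnt ligands, 12 Frizzled and Lrp receptors, 7 R-spondins and Lgr receptors, 7 secreted inhibitors of the Dkk and Sfrp families, 6 intracellular or membrane inhibitors (Axin1, Axin2, Apc, Nkd1, Znrf3 and Rnf43) and 8 effectors (Ctnnb1, Lef1, 3 Tcf genes and 3 Dvl genes). All 58 were found among the 21519 protein-coding genes of the RefSeq table for assembly GRCm38.p6. The measurement was a deposited list of 1451 SP8 peaks, named for replicate 1, a q of 0.1 and a fold of 3. A peak was assigned to a gene when its centre lay inside the gene, or within 10 kb or 100 kb of its start or end, and 33 peaks met the wider rule for at least 1 of the 58 genes.

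The peaks came from chromatin immunoprecipitation and sequencing (ChIP-seq) of forelimb ectoderm, the epithelium that covers the limb bud, from C57BL6J embryos at E10.5. The SP8 libraries (2 immunoprecipitations and 2 inputs) were from embryos homozygous for a knock-in allele that adds a FLAG tag to SP8, precipitated with the FLAG M2 antibody by ChIPmentation, a low-input form of ChIP-seq. The ectoderm of 50 forelimb buds was pooled for each replicate after digestion in 0.25% trypsin, so that the list does not separate the apical ridge from dorsal and ventral ectoderm. A single immunoprecipitation of dimethylated histone H3 lysine 4 and its input, from embryos of the same stage and strain labelled WT, completed the set of 6 libraries and were not analysed here. The purity of the ectoderm was not checked against markers, since a peak list holds no expression values. Every result below describes 1 peak list without a replicate check, since replicate 2 was not analysed here, the sequencing depth is unknown, and a gene without a peak cannot be told apart from a gene bound below the threshold of the list.

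As background, secreted Wnt proteins bind a Frizzled receptor and an Lrp co-receptor, Dishevelled (Dvl) relays the signal, and beta-catenin (Ctnnb1) escapes the Axin and Apc destruction complex to act with TCF and LEF factors in the nucleus. R-spondins and their Lgr receptors raise the signal by removing the ubiquitin ligases Znrf3 and Rnf43, which otherwise clear Frizzled proteins from the membrane, while Dkk and Sfrp proteins block it outside the cell. In the limb, beta-catenin signalling in the ectoderm, driven in the mouse by Wnt3, is required for the apical ectodermal ridge and its Fgf8 expression, and SP8 with its relative SP6 acts in the same epithelium.

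An SP8 peak lay inside or within 10 kb of 15 of the 58 genes (25.9%, Wilson 95% interval 16.3 to 38.4), where the share over all protein-coding genes was 6.48%. The 15 were 6 ligands (Wnt3, Wnt4, Wnt5a, Wnt6, Wnt10a and Wnt10b), 4 receptors (Fzd2, Fzd4, Fzd5 and Fzd7), Lgr6, Znrf3, Tcf7l1, Tcf7l2 and Dvl2. With the window of 100 kb the number rose to 25 genes (43.1%, 31.2 to 55.9), against 20.1% of all protein-coding genes. The remaining 33 genes had their nearest peak between 124.5 kb (Wnt5b) and 5.39 Mb (Lgr4) away. The intervals cover counting over genes alone, and neighbouring Wnt genes are not independent, since 6 of them shared 5 peaks. The 58 genes were also chosen with earlier results of these data known, so the intervals cannot be read as a test of enrichment. When a peak counted only for its nearest protein-coding gene, 13 genes were left at 10 kb (background 4.74%) and 16 at 100 kb (background 5.52%).

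The 10 kb window separated the genes cleanly. The last gene inside it was Dvl2, at 3.46 kb, and the first outside was Wnt1, at 13.8 kb. At 100 kb the neighbours of the limit were Wnt8b, at 92.9 kb, and Wnt5b. The 58 genes were longer than usual, with a median of 31.5 kb against 17.4 kb over all protein-coding genes, and the background at 10 kb rose with length from 3.36% in the lowest quartile of length, through 5.93% and 6.26%, to 10.4% in the highest. In the same quartiles, from short to long, 3 of 11, 4 of 10, 4 of 16 and 4 of 21 of the Wnt pathway genes had a peak within 10 kb. Their shares ran from 19.0% in the highest quartile to 40.0% in the one above the lowest, above the background of the same quartile in each case. The median distance to the nearest peak was 238 kb over the 58 genes and 481 kb over all protein-coding genes.

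**Figure D1:**
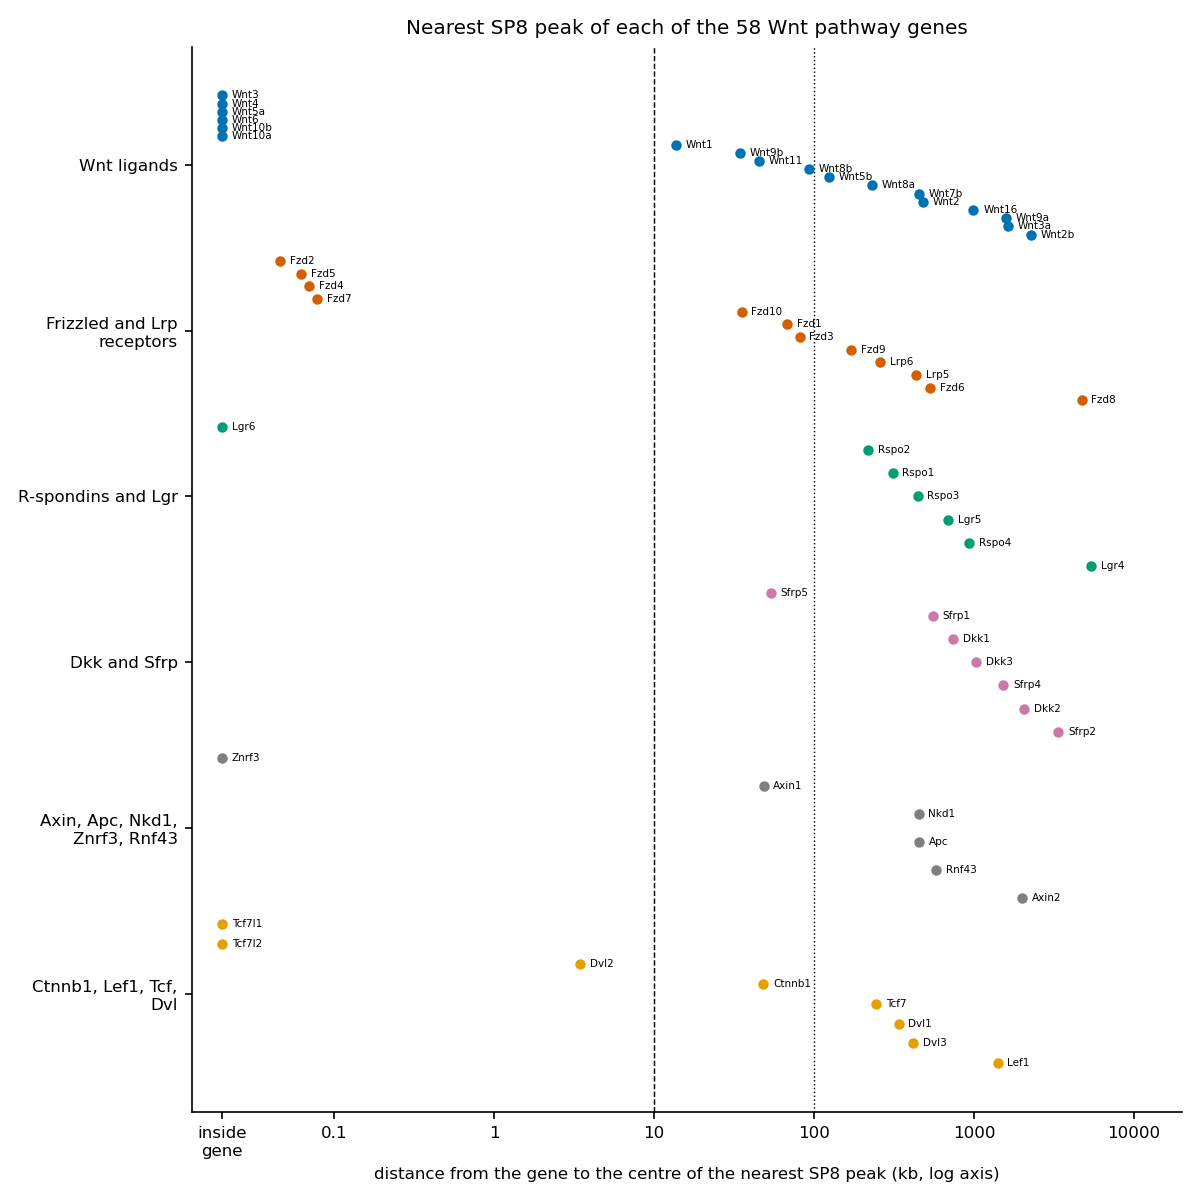
Distance in kb (log axis) from each of the 58 genes to the centre of its nearest SP8 peak, grouped by role. Each point is 1 gene, points at the left edge have the peak inside the gene, and the dashed and dotted lines mark 10 and 100 kb. The Frizzled points at the left, at 0.046 to 0.0785 kb, sit apart from the 6 ligands with a peak within 10 kb, whose closest peaks are inside the genes.

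The counts by role are given as a description, and no difference between roles was tested. Against the share of 20.1% over all protein-coding genes, a peak within 100 kb was present at 10 of 18 ligands (55.6%, Wilson interval 33.7 to 75.4). It was present at 7 of 12 receptors (58.3%, 32.0 to 80.7) and 4 of 8 effectors (50.0%, 21.5 to 78.5). The counts were 1 of 7 R-spondin and Lgr genes (14.3%, Wilson interval 2.57 to 51.3), 1 of 7 secreted inhibitors (the same share) and 2 of 6 intracellular or membrane inhibitors (33.3%, 9.68 to 70.0). The intervals of these last roles include the share over all genes. When a peak counted only for its nearest protein-coding gene, Wnt1, Wnt8b, Wnt9b, Wnt11, Fzd3, Fzd4, Dvl2, Axin1 and Sfrp5 lost theirs at 100 kb. At 10 kb the secreted inhibitors had 0 of 7 (interval up to 35.4%), beside 6.48% of all genes, and with so few genes nothing can be read from that count.

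**Figure D2:**
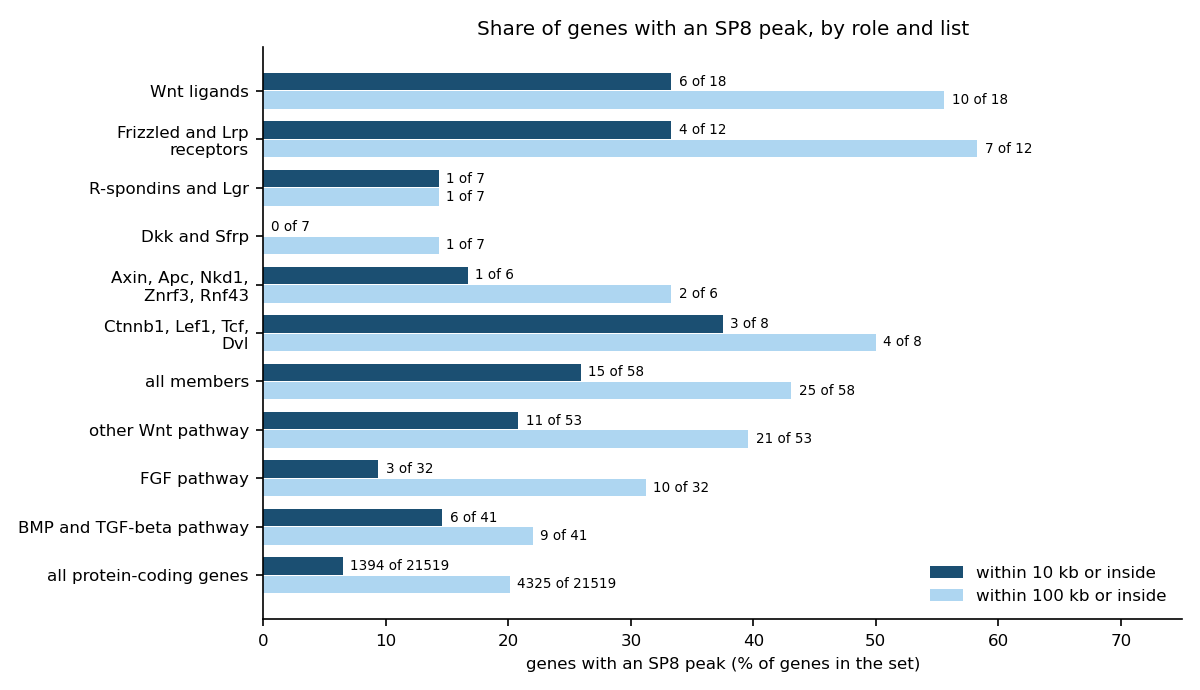
Share of genes, in %, with an SP8 peak inside or within 10 kb (dark bars) or 100 kb (light bars), for the 6 roles, all 58 genes, 3 other lists and all protein-coding genes. The number of genes stands beside each bar. The 58 genes reach 25.9% and 43.1%, and all protein-coding genes 6.48% and 20.1%.

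Among the receptors, the peaks within 10 kb all lay on a gene boundary. Frizzled proteins are the membrane receptors that bind Wnt ligands through a cysteine-rich domain. The peak at Fzd2 (chromosome 11, 102604237 to 102604533, number 181 in the list) was centred 46 bp outside the gene and ran from 194 bp outside to 102 bp inside it. At Fzd4 (chromosome 7, 89404195 to 89404397, number 570) the centre was 70 bp before the start site, at Fzd5 (chromosome 1, 64737542 to 64738082, number 1155) 62 bp before it, and at Fzd7 (chromosome 1, 59481910 to 59482227, number 326) 78.5 bp before it. All 4 peaks therefore covered the boundary itself, with widths of 202 to 540 bp, and all 4 centres lay just outside the gene.

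**Figure D3:**
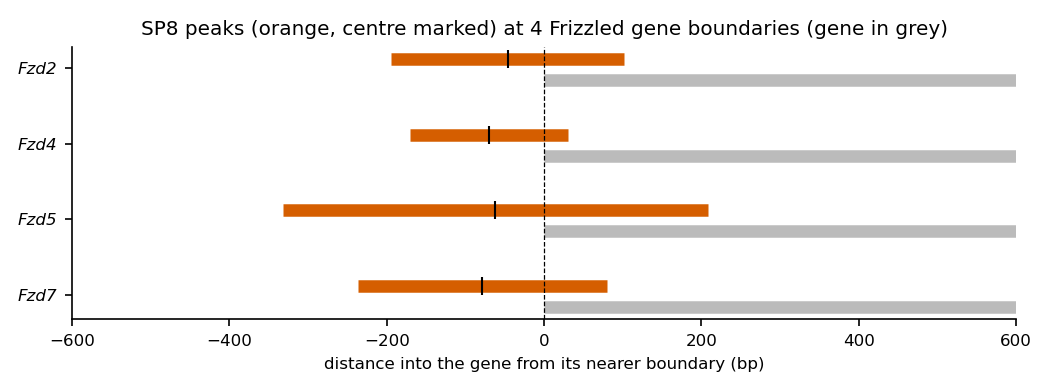
SP8 peaks (orange bars, black tick at the centre) at Fzd2, Fzd4, Fzd5 and Fzd7 in bp from the nearer gene boundary (dashed line), with the gene in grey to the right. Each peak spans the boundary, from 171 to 332 bp outside the gene to 31 to 208 bp inside it.

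A boundary within 1 kb of a peak was found for 5 of the 58 genes (8.62%), the 4 Frizzled genes and Znrf3, against 2.81% of all protein-coding genes. In the comparison lists described below, the share was 9.43% for other Wnt, 6.25% for FGF and 12.2% for BMP and TGF-beta pathway genes. Among genes with a peak within 10 kb, such a boundary peak was present at 4 of 4 receptors, 0 of 6 ligands (by the RefSeq gene span, although a Wnt6 peak lay 0.707 kb before a start site) and 605 of 1394 protein-coding genes (43.4%). Promoter windows, from 250 bp before to 50 bp after a start site, were given in the RefSeq table for 39 of the 58 genes. A peak overlapped the window of 3 of them (7.69%), namely Fzd4, Fzd5 and Fzd7, compared with 2.3% of the protein-coding genes in that table. Fzd2 and Znrf3 had no window in it, so an overlap could not be counted for them. The overlapped share was 8.11% for other Wnt, 4.35% for FGF and 3.7% for BMP and TGF-beta pathway genes with a window. The Fzd4 peak also covered the start site of Tmem135, which is transcribed in the opposite direction and lay 74 bp from the peak centre, and by the nearest-gene rule that peak belonged to Tmem135.

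The 250 bases before the start site of these 3 genes are shown because SP8 peaks covered them, for 171 bases at Fzd4, 250 at Fzd5 and 237 at Fzd7. Sequences are from RefSeq, assembly GRCm38.p6, written 5′ to 3′ on the strand of the gene. Capitals mark the GC box GGGCGG, or its reverse complement, the short motif known to be bound by SP and KLF zinc-finger proteins. Wnt3a is shown as a contrast: of the genes without a peak within 100 kb, its promoter window held the most GC boxes, and it was chosen after the values were seen.
Fzd4, chr7:89404116-89404365, + strand: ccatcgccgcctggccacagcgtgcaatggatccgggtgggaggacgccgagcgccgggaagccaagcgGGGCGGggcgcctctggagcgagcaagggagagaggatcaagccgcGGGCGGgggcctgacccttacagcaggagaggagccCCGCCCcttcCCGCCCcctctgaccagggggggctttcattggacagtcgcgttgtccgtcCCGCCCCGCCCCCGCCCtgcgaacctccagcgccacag
Fzd5, chr1:64737751-64738000, - strand: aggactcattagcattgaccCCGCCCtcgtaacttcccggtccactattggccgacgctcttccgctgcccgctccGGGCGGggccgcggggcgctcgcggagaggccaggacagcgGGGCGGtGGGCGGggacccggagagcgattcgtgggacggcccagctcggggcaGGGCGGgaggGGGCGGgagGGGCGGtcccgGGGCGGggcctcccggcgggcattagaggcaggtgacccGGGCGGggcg
Fzd7, chr1:59481897-59482146, + strand: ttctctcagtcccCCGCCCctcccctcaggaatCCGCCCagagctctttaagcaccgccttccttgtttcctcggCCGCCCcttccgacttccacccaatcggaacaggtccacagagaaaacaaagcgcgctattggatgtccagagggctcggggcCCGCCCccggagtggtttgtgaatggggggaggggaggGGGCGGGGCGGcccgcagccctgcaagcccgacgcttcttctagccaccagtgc
Wnt3a, chr11:59290752-59291001, - strand: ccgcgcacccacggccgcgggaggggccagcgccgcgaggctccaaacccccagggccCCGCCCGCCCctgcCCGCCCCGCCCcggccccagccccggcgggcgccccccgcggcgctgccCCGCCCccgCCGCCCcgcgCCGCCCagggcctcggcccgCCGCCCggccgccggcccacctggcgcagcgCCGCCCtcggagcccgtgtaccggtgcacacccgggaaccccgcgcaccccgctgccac

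In these stretches Fzd4 had 7 GC boxes, Fzd5 had 9 and Fzd7 had 6, with overlapping matches counted separately. The nearest to the start site began 27, 10 and 49 bp before it. Wnt3a had 9, between 192 and 59 bp before its start site, and its nearest peak was 1623 kb away. GC content was 72.8% at Fzd4, 76.4% at Fzd5, 65.2% at Fzd7 and 87.6% at Wnt3a. GC boxes were thus dense in promoters with a peak and in one without.

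Over the whole promoter table the GC box was frequent under SP8 peaks. It occurred on either strand in 46.7% of the 21044 protein-coding windows and in 90.8% of the 436 windows overlapped by a peak. The share of protein-coding windows overlapped by a peak was 0.356% with no GC box, 2.50% with 1 or 2, 5.79% with 3 or 4, 10.4% with 5 or 6 and 16.4% with 7 or more. Of the 49 windows of the Wnt pathway genes, 35 (71.4%) held a GC box, and 5 held 7 or more. The 3 overlapped windows were among those 5, the others being Wnt3a and Wnt4. The 46 windows without a peak held between 0 and 9 GC boxes with a median of 2. The median was 0 over all protein-coding windows and 3 over those overlapped by a peak. Median GC content was 56.7% over the protein-coding windows, 68.3% in those overlapped by a peak and 67.3% in the 49 Wnt pathway windows. Whether the GC box shares differ beyond this base composition was not tested. Windows are given as a description, since base composition and the number of windows per gene vary with them.

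The motif ATCAAAG, bound by TCF and LEF factors, was found on either strand in 2 of the 49 windows (4.08%), at Wnt5b and Wnt11, and in 3.25% of protein-coding windows. TAATTA, the core bound by many homeodomain proteins, was found in 1 window (2.04%), at Wnt8b, against 4.47%. Neither occurred in the 3 windows under a peak. Over all 436 protein-coding windows under a peak the shares were 2.29% and 1.83%. Bases of the peaks outside the promoter table were not examined.

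Of the other receptors, 3 Frizzled genes had a peak between 10 and 100 kb and the rest had none in that range. The peak near Fzd10 was 35.3 kb before its start site (number 555), and the one near Fzd1 was 72.3 kb after its start site (number 77), and both had that Frizzled gene as the nearest protein-coding gene. The peak 81.4 kb from Fzd3 was nearer to Zfp395. Fzd2 had another peak 16.4 kb away. Lrp5 and Lrp6, the co-receptors of the beta-catenin branch, had their nearest peaks 435.0 and 259.2 kb away. Fzd6, Fzd8 and Fzd9 also had none within 100 kb.

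The ligand genes showed a different arrangement. They were also longer, with a median of 22.4 kb over the 18 ligand genes against 5.28 kb over the 12 receptor genes. Whether length accounts for the arrangement was not tested. All 6 ligand genes with a peak within 10 kb had one inside the RefSeq gene span, and in no case did its centre lie within 1 kb of an end of that span. The nearest to this limit was Wnt5a, at 1.08 kb, and the Wnt6 peak lay within 1 kb of a start site inside the span. At Wnt3, the ectodermal ligand required for the ridge, the peak (chromosome 11, 103809619 to 103810224, number 1040) was 605 bp wide and lay 35.7 kb after the start site. At Wnt4, a ligand of kidney and joint development, the peak (chromosome 4, 137282883 to 137283175, number 1416) lay 5.39 kb after it. At Wnt5a, the ligand of limb outgrowth and planar polarity, a peak (chromosome 14, 28505435 to 28505815, number 1006) lay inside the gene 1.08 kb from its lower-coordinate end, and another (number 336) 20.2 kb outside that end was nearer to Erc2.

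Wnt6 and Wnt10a, ligands of surface ectoderm that lie side by side on chromosome 1, shared 3 peaks that spanned 37.7 kb. The first (74770771 to 74771599, number 1229) was the widest peak within 10 kb of any of the 58 genes, at 828 bp. It was centred 0.707 kb before the Wnt6 start site of the promoter table, with its near edge 293 bp before that site, and counted as inside Wnt6 because the RefSeq span begins farther upstream. Another (74797460 to 74797716, number 1160) lay inside Wnt10a, 5.57 kb from its lower-coordinate end. The last (74808075 to 74808501, number 143) lay 4.11 kb beyond the higher-coordinate end of Wnt10a.

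A peak was also shared by Wnt10b and Wnt1 and by Wnt3 and Wnt9b. Wnt10b held a peak 2.09 kb after its start site (chromosome 15, 98775916 to 98776213, number 1401), and the same peak lay 13.8 kb before the start site of Wnt1, a ligand of the midbrain. The Wnt3 peak was also the only one within 100 kb of Wnt9b, 34.6 kb from the gene. For both Wnt1 and Wnt9b the peak lay inside the neighbouring ligand gene.

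**Figure D4:**
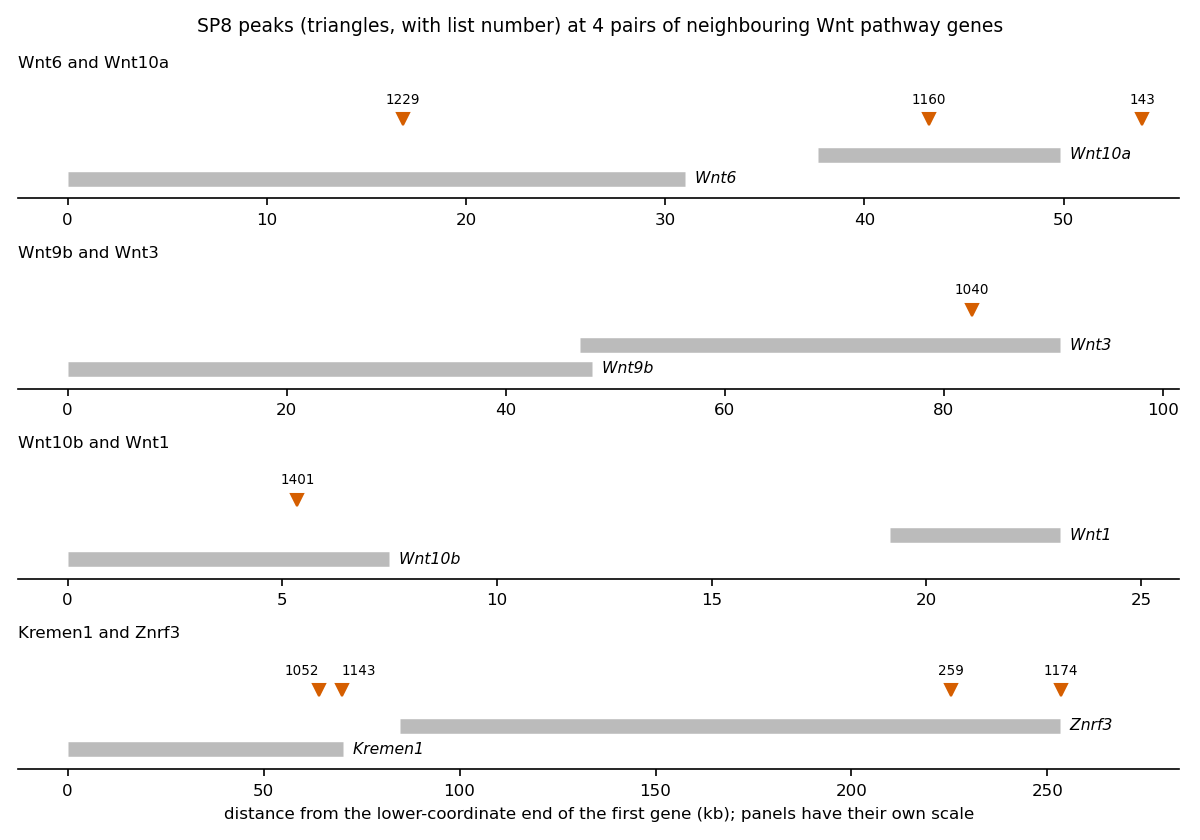
SP8 peaks (triangles with their number in the list) at 4 pairs of neighbouring Wnt pathway genes (grey bars), in kb from the lower-coordinate end of the first gene, each panel with its own scale. Wnt6 and Wnt10a have 3 peaks, Wnt9b and Wnt3 share 1, Wnt10b and Wnt1 share 1, and Kremen1 and Znrf3 have 2 each inside or next to them.

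Wnt11 and Wnt8b, the other ligands of the wider window, had peaks 45.6 and 92.9 kb away, inside Uvrag and nearest to Hif1an. The remaining 8 of the 18 ligand genes, Wnt2, Wnt2b, Wnt3a, Wnt5b, Wnt7b, Wnt8a, Wnt9a and Wnt16, had no peak within 100 kb. Wnt3a and Wnt9a, also neighbours, were 1623 and 1580 kb from the nearest peak. Wnt7a, the ligand of dorsal limb ectoderm, was not among the 18 and was counted with the other pathway genes. Its nearest peak (number 146) lay 39.5 kb away, with no protein-coding gene nearer to that peak.

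In the R-spondin branch only Lgr6 had a peak within 100 kb. Lgr6, an R-spondin receptor that marks stem cells of the skin, held peak 31 of the list (chromosome 1, 135069724 to 135070091), 35.4 kb after its start site. This was the earliest list number among the 33 peaks. Rspo2, an R-spondin of the apical ridge required for limb development, had its nearest peak 217.1 kb away, and those of Rspo1, Rspo3 and Rspo4 were 310.4, 445.8 and 932.8 kb away. Lgr5 and Lgr4 were 689.2 and 5388 kb from a peak.

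Over the 7 secreted inhibitors the median distance to the nearest peak was 1030 kb, beside 481 kb over all protein-coding genes. With so few secreted inhibitors, no difference can be read from these distances, and none was tested. Sfrp5, a decoy that binds Wnt proteins, was the only one with peaks within 100 kb, at 53.9 and 78.2 kb, and these lay inside Golga7b and next to Crtac1. Dkk1, the Lrp antagonist that restrains ridge signalling, had its nearest peak 739.8 kb away. The distances for Dkk2, Dkk3, Sfrp1, Sfrp2 and Sfrp4 ran from 552.2 kb (Sfrp1) to 3.38 Mb (Sfrp2).

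Among the intracellular and membrane inhibitors, Znrf3 had the most peaks within 100 kb of all 58 genes, with 4, of which 2 lay inside Kremen1. Within 10 kb it had 2, as did Wnt10a and Tcf7l1. One peak (chromosome 11, 5416837 to 5417166, number 259) lay inside it, 27.8 kb from its higher-coordinate end, and another (5444849 to 5445055, number 1174) was centred 105 bp outside that end. A further pair (numbers 1143 and 1052) lay 14.8 and 20.6 kb beyond its other end, both inside Kremen1, which encodes a receptor for Dkk proteins. Axin1, a scaffold of the destruction complex, was 48.4 kb from peak 1442, which lay inside Fam234a. Rnf43, the relative of Znrf3, had its nearest peak 578.3 kb away, and Apc and Nkd1 455.0 and 451.5 kb. Axin2, a feedback inhibitor that beta-catenin signalling induces in many tissues, was 1997 kb from the nearest peak.

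The effectors were divided within each family. Tcf7l1, which acts mainly as a repressor, held 2 peaks, 25.2 and 33.7 kb after its start site (chromosome 6, 72763534 to 72764099, number 1352, and 72755226 to 72755480, number 604). Tcf7l2 held 1 peak 1.40 kb after its start site (chromosome 19, 55743022 to 55743393, number 605). Tcf7 and Lef1, the other nuclear partners of beta-catenin, were 245.9 and 1405 kb from a peak. Ctnnb1, which encodes beta-catenin, had peak 869 at 48.4 kb before its start site, and no protein-coding gene was nearer to that peak.

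Of the Dishevelled genes, Dvl2 had 3 peaks within 100 kb and Dvl1 and Dvl3 had none, with nearest distances of 338.5 and 418.7 kb. The closest Dvl2 peak (chromosome 11, 69996868 to 69997398, number 1023) lay 3.46 kb before its start site and covered a start site of Phf23. The others, 17.0 and 19.6 kb from Dvl2, lay inside Dlg4 and Elp5. None of the 3 had Dvl2 as its nearest gene.

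**Figure D5:**
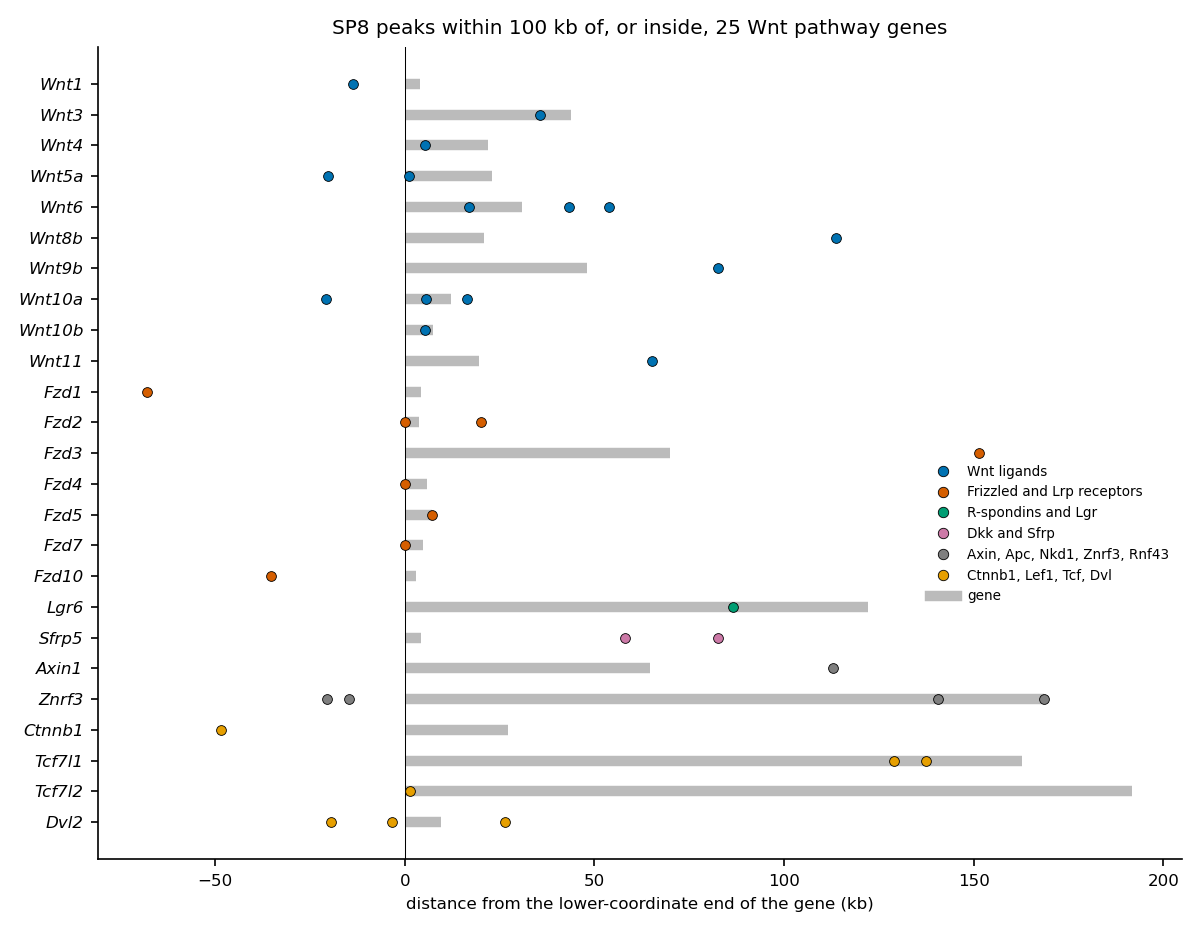
SP8 peaks (points, coloured by role) within 100 kb of, or inside, the 25 Wnt pathway genes that had any, in kb from the lower-coordinate end of each gene (grey bars, to scale). Ligand peaks fall inside or beyond the genes, while the nearest peaks of Fzd2, Fzd4, Fzd5 and Fzd7 fall on a gene end. Fzd2 has another peak 16.4 kb away.

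Having more than 1 peak was also recorded. At least 2 peaks within 100 kb were present at 8 of the 58 genes (13.8%), against 4.12% of all protein-coding genes. These were Wnt5a, Wnt6, Wnt10a, Fzd2, Sfrp5, Znrf3, Tcf7l1 and Dvl2. Wnt6 and Wnt10a counted the same 3 peaks.

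The 33 peaks resembled the rest of the list in width. They had a median width of 325 bp, with a 95% interval of 292 to 426 from order statistics, against 336 bp for the 1447 peaks placed on chromosomes 1 to 19 and X. Widths ran from 199 to 876 bp. The median number in the list was 890 (604 to 1143) against 725 for all placed peaks, and what sets that order is not stated. Within 1 kb of any protein-coding gene boundary lay 8 of the 33 peaks (24.2%, Wilson interval 12.8 to 41.0), against 36.5% of all placed peaks. For 20 of the 33 the nearest protein-coding gene was one of the 58.

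The rest of the pathway was covered by a list of 53 other genes that take part in Wnt signalling or respond to it. This list too was chosen with earlier results of these data known. Of the 53 genes, 11 (20.8%) had a peak within 10 kb and 21 (39.6%) within 100 kb, beside the backgrounds of 6.48% and 20.1%. They included partners of beta-catenin in transcription. Bcl9 held a peak 0.281 kb before a start site, Bcl9l held one 13.3 kb from its nearer end, and Pygo2 had peak 35 of the list centred 48.5 bp after its start site. Gsk3b, the kinase that marks beta-catenin for destruction, had a peak 0.629 kb before its start site.

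Of the other genes with a peak within 10 kb, Kremen1 held the 2 peaks it shares with Znrf3, and Ror2, a receptor for Wnt5a, held 2 peaks, 55.1 and 89.6 kb after its start site. Celsr1 and Celsr3, cadherins of planar cell polarity, had a peak 13 bp outside and 1.03 kb after the start site, respectively. Apcdd1, a membrane inhibitor of Wnt signalling, held a peak 1.60 kb from its lower-coordinate end, and Dact2, which binds Dishevelled, one 61 bp before a start site. The peak near Dkkl1, at 4.09 kb, lay inside Tead2.

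Lists of FGF and of BMP and TGF-beta pathway genes, also chosen with earlier results known, were counted in the same way. The shares over all protein-coding genes were 6.48% and 20.1%. Of 32 FGF pathway genes, 3 (9.38%) had a peak within 10 kb and 10 (31.2%) within 100 kb. Of 41 BMP and TGF-beta pathway genes, 6 (14.6%) and 9 did. The differences from the 25.9% and 43.1% of the 58 genes were not tested, and the Wilson intervals of both lists overlap those of the 58 genes at both distances (3.24 to 24.2 and 6.88 to 28.4 at 10 kb, 18.0 to 48.6 and 12.0 to 36.7 at 100 kb).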

How the data were processed

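The 58 genes and all lists were chosen with earlier results of these data known. Per the submitters' processing notes, FastQC, SAMtools, TopHat2, deepTools and MACS2 were used with GRCm38 (mm10), with no roles or versions given. The control library, any pooling and the caller's settings are not given in the sources used here. The deposited list has no header and 4 columns, namely sequence, start, end and a score, which is a whole number from 1 to 1451 in file order. Positions are printed as deposited, and width is end minus start.

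Peaks were placed by their centres with Python 3.11.15, pandas 2.3.3 and numpy 2.4.6. The 4 peaks outside chromosomes 1 to 19 and X were left out. Genes were protein-coding RefSeq genes on chromosomes 1 to 19 and X that start beyond 3 Mb, with 1 span per gene. Start sites and strand came from the RefSeq promoter table. The nearest gene was chosen by distance to the gene, then to its boundary. The rule was tested on simulated peaks. All genes with a peak within 100 kb and other pathway genes with one within 10 kb are named, by a rule that also named the nearest gene of each such peak. The other genes without a peak, Wnt3a as a contrast, Wnt7a, Ctdnep1 and 2810433D01Rik are named beyond that rule, after their values were seen. No test was made, because the data are 1 list.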

Additional observations from a re-analysis of the deposited data

How the results depend on the processing

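Of 60 alternative values over 12 results, 43 stayed within 1.5 times the count or within the interval of the reported value and 17 moved. Measuring from peak edges, merging peaks within 1 kb, and windows of 5, 20, 50 and 200 kb moved no count of genes or peaks beyond 1.5 times; at 200 kb, 27 genes (46.6%) stood against a background of 30.9%. With the boundary alone, Wnt6, Lgr6 and Tcf7l1 left the 10 kb set, which held 12 genes (20.7%, background 5.4%). Settings with fewer peaks gave lower counts by construction. The first part of the list, up to number 725, gave 8 genes and 8 peaks at 10 kb and 14 genes and 14 peaks at 100 kb (backgrounds 3.23% and 10.7%), with 7 other pathway genes at 10 kb, and lost Wnt3, Wnt4, Wnt5a, Wnt6, Wnt10b, Fzd5 and Dvl2 at 10 kb. Peaks wider than the list median gave 9 and 9 at 10 kb and 15 and 15 at 100 kb (backgrounds 3.48% and 11.3%), with 7 other pathway genes at 10 kb, and lost Wnt4, Wnt10b, Fzd2, Fzd4, Fzd7 and Znrf3. Counting a peak for its nearest gene alone gave 16 genes and 20 peaks at 100 kb and 13 other pathway genes (background 5.52%). The GC box share of the 49 promoter windows was 57.1% on the printed strand alone, a search that can only lower it. In the 12 windows of genes with a peak within 10 kb the GC box share was 83.3%, and the shares of ATCAAAG and TAATTA were both 0%. The cause of the differences in those 12 windows was not tested.

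Stricter thresholds and motifs in whole peaks were planned and not run: fold and q values and a genome were not used here. No paired analysis was possible because 1 peak list was analysed, which also left no replicate to omit. The unknown depth limits any statement on genes without a peak.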

Other observations

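Several peaks within 100 kb of the Wnt pathway genes lay on promoters of other genes. Peak 1442, 48.4 kb from Axin1, was centred 26 and 56 bp from 2 start sites of Fam234a. Peak 1023, 3.46 kb from Dvl2, was centred 192 bp from a start site of Phf23. Peak 1258, 19.6 kb from Dvl2, overlapped the promoter window of Ctdnep1, with its centre 126.5 bp from that start site. Peak 890, 16.4 kb from Fzd2, was centred 66 bp from the start site of the gene 2810433D01Rik.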
